A study of Mus musculus with 4 samples.

Results

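Cytochrome P450 genes encode heme enzymes that add oxygen to drugs, inhaled chemicals, fatty acids, sterols and steroids. Most sit in the endoplasmic reticulum and take electrons from the reductase Por, while a few steroid and sterol enzymes sit in mitochondria. In mouse airways the non-ciliated club cells of the bronchioles are the best known site of P450 activity, with Cyp2f2 and Cyp4b1 among their typical enzymes, whereas Cyp3a11 and many of the Cyp2c and Cyp2d enzymes are known mainly from the liver.

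The genes described here were chosen by name: every probe with a value on all 4 arrays whose single platform symbol starts with Cyp and a digit, with the probes of a gene averaged. This gave 25 probes for 23 genes, out of 9153 named genes with values on all 4 arrays. The members and the role lists were chosen with earlier results of these data known. Their shares and medians, set beside those of all genes, are thus descriptive only. A further 5 P450 probes, for Cyp2b10, Cyp2d40, Cyp2j9, Cyp3a13 and Cyp4f16, lacked a value on at least 1 array and are not members. The aryl hydrocarbon inducible genes Cyp1a1 and Cyp1b1 and the club cell secretoglobin Scgb1a1 were not analysed here.

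The lungs came from BALB/cJ mice, an inbred strain in common use for asthma models, and 4 arrays with a pair of dyes each were hybridised. On 2 arrays the lung was from mice sensitized to ovalbumin, the egg white protein, challenged with it and exposed to UCP ("UCP air" below). The labels do not explain this abbreviation, and the sample labels give no order of challenge and exposure. On the other 2 arrays it came from sensitized and challenged mice labelled with particle-free air. Every array carried a pool of lung RNA from 6 control animals as its second channel. These were non-sensitized mice that had breathed UCP air for the UCP arrays, and non-sensitized mice from particle-free air for the others. As the controls were non-sensitized, sensitization cannot be told apart from challenge, and "challenge" below means both. Array 1 of each air has the challenged lung in Cy5 and array 2 has it in Cy3.

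All values are log2 ratios of challenged lung over the control pool, so 1 means a doubling and a negative value means less RNA in challenged lung. That the 4 arrays run in the same direction follows from the values themselves. The sign, challenged over control, is likely and not certain: its basis is that scanner software mostly divides Cy5 by Cy3, and that macrophage genes of the asthmatic mouse lung, summarised further on, are then high. Were the sign the other way, every ratio, direction and rank given here would turn round. Whether both arrays of an air hold RNA of different animals is not in the labels, so p-values measure array-to-array spread that may be technical only, and each control pool counts as 1 control sample without a spread of its own. The arrays held 19349 to 19832 values each. Their number limits the precision. Pearson's r between the 2 arrays of an air, across 9153 genes, which are not independent replicates, was 0.19 in UCP air and 0.13 in particle-free air. Values at the ceiling of the ratio scale, described under processing, were kept in it, so r is not that of measured ratios alone.

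No P450 gene passed limma's moderated test at an adjusted p of 0.05 in any of 4 comparisons, but 3 of the 23 stood apart by size. Cyp2f2 and Cyp4b1 were at least 1.5-fold lower, and Cyp3a11 at least 1.5-fold higher, in challenged lung on every array. Over all 9153 genes 1.02% were at least 1.5-fold lower and 1.16% at least 1.5-fold higher on all 4 arrays. The other 20 genes had averaged log2 ratios between -0.55 and 0.89. Over all members the median averaged log2 ratio was 0.08, with 14 genes above and 9 below 0, against a median of -0.01 over all genes. Members thus lay on both sides of 0.

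**Figure D1:**
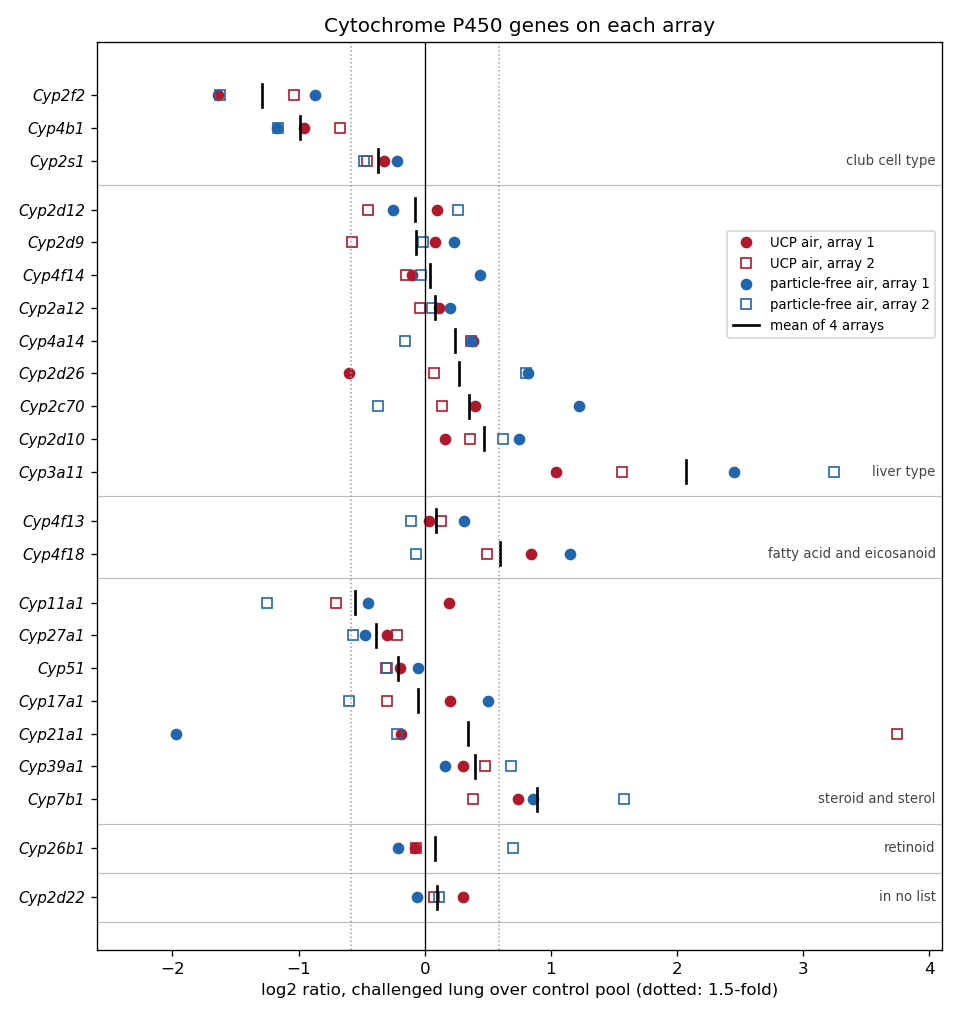
Log2 ratio of challenged lung over control pool (horizontal axis) for each of the 23 P450 genes on each of the 4 arrays, grouped by role; red marks are UCP air, blue marks particle-free air, filled circles array 1 and open squares array 2, and black bars the mean of 4 arrays. Cyp2f2 and Cyp4b1 lie left of the lower 1.5-fold line and Cyp3a11 right of the upper one on all 4 arrays, while Cyp21a1 runs from -1.97 to 3.74.

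In the averaged effect over both airs 9 of 9153 genes, 0.0983%, passed the test (limma with Benjamini-Hochberg adjustment over all genes), and 0 of the 23 P450 genes did. At an unadjusted p under 0.05 there were 7 P450 genes, or 30.4%, beside 15.6% of all genes. They were Cyp3a11, Cyp4b1, Cyp2f2, Cyp7b1, Cyp2d10, Cyp27a1 and Cyp2s1. With 4 arrays an exact sign-flip test of a single gene cannot go below p = 0.125, and with 2 arrays against 2 an exact permutation test cannot go below 0.333, so limma's shared estimate of the spread carries every p-value given here. The same fit was run on data simulated for the averaged effect over 9153 genes. It recovered 10.4% of genes changed by 1, 83.6% of those changed by 2 and 97% of those changed by 4 on the log2 scale. It also made 10 false calls. On the real arrays Cyp3a11, at an averaged log2 ratio of 2.07, did not pass (limma adjusted p = 0.0696). Whether the recovered shares hold for the real arrays was not tested.

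**Figure D2:**
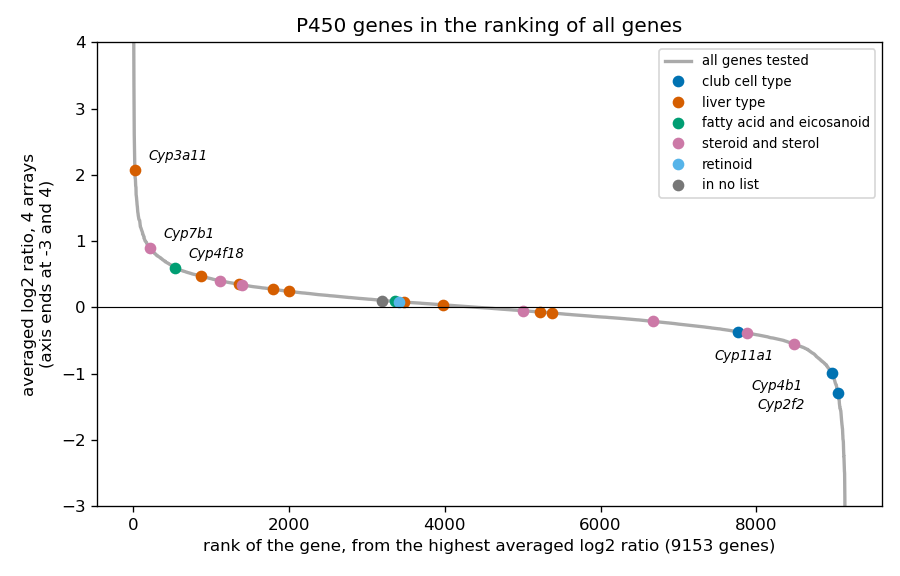
Averaged log2 ratio over 4 arrays (vertical axis, drawn from -3 to 4) against the rank of each gene from the highest ratio (horizontal axis); the grey line is all 9153 genes and the coloured points are the 23 P450 genes by role. Cyp3a11 ranks 25 from the top, Cyp2f2 ranks 114 and Cyp4b1 ranks 191 from the bottom (with the sign turned, 25 from the bottom and 114 and 191 from the top), and most other members lie along the flat middle of the line.

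The club cell enzymes came first. Cyp2f2, which in mouse airways converts naphthalene and related inhaled chemicals to reactive products, had log2 ratios of -1.64 and -1.04 in UCP air and of -0.87 and -1.62 in particle-free air. All 4 arrays were low and the 2 airs overlapped. Its average of -1.29 ± 0.39 (SD, n = 4) is a 2.45-fold lower level in challenged lung (limma adjusted p = 0.128, unadjusted p = 0.00237).

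Cyp4b1, an enzyme of lung epithelium that hydroxylates fatty acids and activates furan compounds, had log2 ratios of -0.96 and -0.67 in UCP air and of -1.17 and -1.16 in particle-free air. It was low on every array, with both UCP arrays above both particle-free arrays. It averaged -0.99 ± 0.23 (SD, n = 4), a 1.99-fold lower level (limma adjusted p = 0.109, unadjusted p = 0.00133). UCP minus particle-free air was 0.35 ± 0.27 (SE, limma adjusted p = 0.979).

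Cyp2s1, a P450 of airway and other surface epithelia, was the third measured gene of the club cell group. Its log2 ratios were -0.32 and -0.46 in UCP air and -0.22 and -0.48 in particle-free air. All were below 0, the airs overlapped, and no array reached 1.5-fold. Its average was -0.37 ± 0.12 (SD, n = 4, limma adjusted p = 0.318). The group thus had 3 of its 5 listed genes measured, all 3 below 0 on all 4 arrays, as 14.1% of all genes were. Its median averaged log2 ratio was -0.99, against -0.01 over all genes. Of the other genes listed, Cyp2a5 was not analysed here, and Cyp2b10 had a probe with -0.33 and 0.34 in UCP air and -0.97 on particle-free array 2, with no value on the remaining array.

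Cyp2f2 and Cyp4b1 were low together, so their start regions are shown, with that of Cyp3a11 beside them for contrast. Each runs from 250 bases before to 50 after the annotated start, 5′ to 3′ on the gene's strand (RefSeq, build GRCm38.p6). Capitals mark the matches on either strand to 4 short motifs: TATAAA (the letters of a core promoter box), GCGTG (core of the xenobiotic response element), AGGTCA (nuclear receptor half-site) and TGTTTNC (FOXA). No 2 of these matches overlapped.
Cyp2f2, chr7:27119705-27120004, plus strand: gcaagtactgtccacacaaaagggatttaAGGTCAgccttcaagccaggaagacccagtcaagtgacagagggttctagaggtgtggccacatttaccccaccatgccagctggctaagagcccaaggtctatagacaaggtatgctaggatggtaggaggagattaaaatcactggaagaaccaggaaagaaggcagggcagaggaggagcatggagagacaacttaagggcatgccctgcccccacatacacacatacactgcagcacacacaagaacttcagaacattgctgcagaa
Cyp4b1, chr4:115647672-115647971, minus strand: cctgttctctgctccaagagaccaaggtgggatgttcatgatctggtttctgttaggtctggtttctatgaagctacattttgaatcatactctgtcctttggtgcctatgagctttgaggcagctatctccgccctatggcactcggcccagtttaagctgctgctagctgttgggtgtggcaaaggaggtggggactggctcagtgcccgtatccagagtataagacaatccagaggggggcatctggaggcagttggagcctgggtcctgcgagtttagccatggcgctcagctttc
Cyp3a11, chr5:145879805-145880104, minus strand: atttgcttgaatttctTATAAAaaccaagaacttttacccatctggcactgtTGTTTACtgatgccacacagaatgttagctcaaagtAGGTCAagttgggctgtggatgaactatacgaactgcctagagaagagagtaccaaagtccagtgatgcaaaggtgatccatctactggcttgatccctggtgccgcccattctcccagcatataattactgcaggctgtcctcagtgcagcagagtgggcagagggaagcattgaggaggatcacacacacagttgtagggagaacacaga
The half-site AGGTCA was found in the start regions of Cyp2f2 and Cyp3a11. That of Cyp3a11 also held the letters TATAAA, at -234 from the start and so far upstream of where a core promoter box lies, and the forkhead form TGTTTAC, and that of Cyp4b1 held none of the 4. These letters are common: AGGTCA is in 16.3% of 32851 start regions of this length, TATAAA in 13.6%, TGTTTNC in 20.5% and GCGTG in 32.4%. Among the P450 genes 16 of 23 had a start region at hand, 20 regions in all. Of these 20 regions TATAAA was in 7 (Cyp26b1, Cyp2a12, Cyp2c70, Cyp2d10, Cyp2d26, Cyp2d9 and Cyp3a11), and AGGTCA was in 4 (Cyp2f2, Cyp3a11, Cyp2c70 and Cyp11a1). TGTTTNC was in 4 (Cyp11a1, Cyp3a11, Cyp4f13 and Cyp4f18), and GCGTG was in 2 (Cyp4f14 and Cyp51). A match is a run of letters, not evidence of a bound factor.

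Other airway genes give the setting for these low values. Of 20 further club cell markers on a list, 10 were measured, 4 above and 6 below 0, with a median averaged log2 ratio of -0.12 and 0 of 10 past the test. The list's median was -0.30 and -0.22 on the UCP arrays and 0.00 and -0.02 on the particle-free arrays. Selenbp1, a selenium-binding protein, averaged -0.90 ± 0.23, and the airway secretory protein Bpifa1 averaged -0.76 ± 0.67 (SD, n = 4 each). The airs differed for Bpifa1, with -0.28 and -0.10 on the UCP arrays and -1.18 and -1.46 on the particle-free arrays. The esterase Pon1 averaged -0.57, and the aldehyde dehydrogenase Aldh1a7 averaged 0.64. The secretoglobin Scgb3a1 had 0.05 and -0.16 on the UCP arrays and 0.36 and 0.27 on the particle-free arrays. The low values of Cyp2f2 and Cyp4b1 were therefore not shared by every club cell marker. In whole lung RNA, fewer club cells and less of these transcripts per cell cannot be told apart. Nor can a greater share of RNA from other cells, or a higher level in the control pools. The part of each was not tested.

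Ciliated cells, the neighbours of club cells, had 12 of 18 listed markers measured, 4 above and 8 below 0, with a median of -0.14 and 0 past the test. Tubb4b, a tubulin of cilia, averaged -0.63, Tppp3 -0.56, Mlf1 -0.51 and Spag6l -0.45, the greatest averages of the list in size. The highest was 0.26 for Dynlrb2, and Foxj1, the transcription factor of ciliated cells, averaged 0.01. Goblet cell markers had 4 of 10 measured, all above 0, with a median of 0.91 and 1 past the test. Alveolar type 2 cell markers had 5 of 10 measured, 2 above and 3 below 0, with a median of -0.18 and 0 past the test. Among them Sftpb averaged -0.88 ± 0.25 (SD, n = 4) and was below 0 on all 4 arrays, and the highest average was 0.07. Macrophage markers had 10 of 14 measured, 9 of them at least 1.5-fold higher on all 4 arrays, with a median of 1.82; they serve for the sign above, so their direction is no finding. None of these lists was tested as a cause of the P450 values.

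The liver-type enzymes were led by Cyp3a11, a broad drug and steroid hydroxylase that is abundant in mouse liver. It had log2 ratios of 1.04 and 1.56 in UCP air and of 2.45 and 3.24 in particle-free air. Every array was high, and both particle-free arrays lay above both UCP arrays. Its average of 2.07 ± 0.97 (SD, n = 4) is a 4.2-fold higher level in challenged lung (limma adjusted p = 0.0696, unadjusted p = 0.00034). In the fit without probes that sit on the ceiling of the ratio scale the same 2.07 passed, with a limma adjusted p of 0.0495. Across the settings fitted by gene with all 4 arrays, limma's adjusted p lay between 0.0495 and 0.341. The fit by probe is not in this range.

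By air, Cyp3a11 averaged 1.30 ± 0.37 over the UCP arrays and 2.84 ± 0.56 over the particle-free arrays (SD, n = 2 each), which are 2.46-fold and 7.19-fold higher levels than in the control pools. UCP minus particle-free air was -1.55 ± 0.41 (SE, limma adjusted p = 0.979, unadjusted p = 0.0166). In data simulated for the difference between airs, over 9153 genes, the fit recovered 0% of changes of 4 on the log2 scale, so a miss in that comparison says little. The mouse genome holds close relatives of Cyp3a11, and cross-hybridisation to them was not tested.

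The Cyp2d enzymes form a gene cluster on chromosome 15, and 5 of them were measured: Cyp2d22, Cyp2d10, Cyp2d9, Cyp2d12 and Cyp2d26, in that order along the chromosome. They are similar in sequence, so their probes may share signal, which was not tested. Cyp2d10 had log2 ratios of 0.16 and 0.36 in UCP air and of 0.75 and 0.62 in particle-free air. It was above 0 on all 4 arrays, with the particle-free arrays higher, and averaged 0.47 ± 0.26 (SD, n = 4, limma adjusted p = 0.242).

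Cyp2d26, measured by 2 probes, had -0.60 and 0.07 in UCP air and 0.82 and 0.80 in particle-free air. The airs did not overlap, and UCP minus particle-free air was -1.07 ± 0.34 (SE, limma adjusted p = 0.979, unadjusted p = 0.0298). Its probes were not alike on every array: in UCP air one gave -0.70 and 0.75 and the other -0.49 and -0.62, and in particle-free air one gave 0.45 and 1.11 and the other 1.19 and 0.48. Both probes were above 0 on both particle-free arrays.

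The remaining Cyp2d genes were near 0. Cyp2d9 averaged -0.07, Cyp2d12 -0.08 and Cyp2d22, which was on none of the role lists, 0.10. Within this cluster the averages thus ran from -0.08 to 0.47. The Cyp2d40 probe, with no value on array 2 of particle-free air, had -0.03 and 0.25 on the UCP arrays and 1.63 on the remaining array.

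The other liver-type genes varied less or were inconsistent between arrays. Cyp2c70, which hydroxylates bile acids in mouse liver, had 0.40 and 0.14 in UCP air and 1.22 and -0.37 in particle-free air. Its 2 particle-free arrays disagreed in sign. Cyp4a14, a fatty acid hydroxylase, averaged 0.24, Cyp2a12 0.08 and Cyp4f14 0.04. Over the 9 measured liver-type genes of 49 listed, the median averaged log2 ratio was 0.24, with 7 above and 2 below 0, 1 at least 1.5-fold higher on all 4 arrays and 0 past the test. By air the median was 0.03 in UCP air and 0.20 in particle-free air. Cyp3a11 was therefore far from the rest of its group, whose next highest average was 0.47.

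Genes of hepatocytes that are not P450 enzymes were measured in the same RNA. Of 39 listed hepatocyte markers 27 were measured, 23 of them above 0, with a median averaged log2 ratio of 0.76 and 0 past the test. The list's median was 0.31 and 0.17 on the UCP arrays and 1.58 and 1.09 on the particle-free arrays. Albumin (Alb) had -0.53 and 0.81 on the UCP arrays and 4.75 and 4.46 on the particle-free arrays. For the heme carrier Hpx the UCP arrays gave 1.20 and 0.48 and the particle-free arrays 3.83 and 3.50. The antiproteases Serpina1d and Serpina1e averaged 1.95 and 1.93 over the 4 arrays. Serpina1d had 0.53 and 0.62 on the UCP arrays and 3.51 and 3.14 on the particle-free arrays. Serpina1e had 0.59 and 0.17 on the UCP arrays and 3.51 and 3.45 on the particle-free arrays. These 4 genes had the greatest averages of the list in size, and its lowest average was -1.27.

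The ratios of the hepatocyte list and of Cyp3a11 thus both stood higher in particle-free than in UCP air. Each air had its own control pool, so challenged lung and pool cannot be told apart as the source of a difference between airs. Whether liver RNA had a part in the Cyp3a11, Cyp2d10 and Cyp2d26 values was not tested. Over the particle-free arrays the other liver-type members had means from 0.01 for Cyp2d12 to 0.81 for Cyp2d26, and Cyp2c70 had 0.42 with single values of 1.22 and -0.37.

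**Figure D3:**
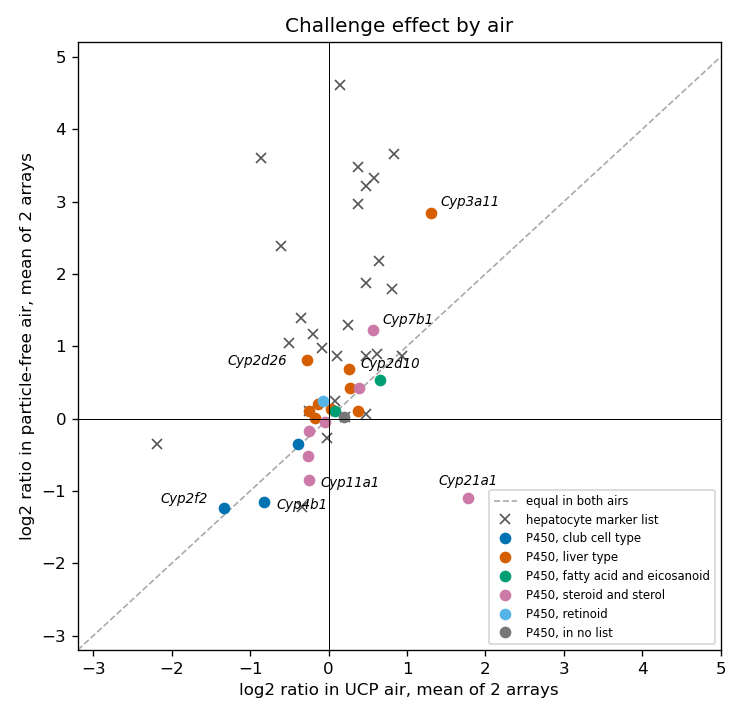
Mean log2 ratio of 2 arrays in UCP air (horizontal axis) against that in particle-free air (vertical axis) for the 23 P450 genes, as points coloured by role, and for 27 hepatocyte markers, as crosses; the dashed line marks equal values. Cyp3a11 (1.30 and 2.84) and Cyp2d26 (-0.27 and 0.81) lie above the line, as most hepatocyte markers do, Cyp2f2 (-1.34 and -1.24) lies near it, and Cyp21a1 (1.78 and -1.10) lies far below it.

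Among the steroid and sterol enzymes Cyp7b1 was highest. This oxysterol hydroxylase helps to set the level of oxysterols that guide immune cells. It had log2 ratios of 0.74 and 0.38 in UCP air and of 0.86 and 1.58 in particle-free air. All arrays were above 0, the particle-free arrays were higher, and 1 UCP array was short of 1.5-fold. The average was 0.89 ± 0.50 (SD, n = 4), a 1.85-fold higher level (limma adjusted p = 0.172, unadjusted p = 0.00714), and UCP minus particle-free air was -0.66 ± 0.37 (SE, limma adjusted p = 0.979).

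Cyp27a1, a mitochondrial sterol hydroxylase active in macrophages and many tissues, was low to a smaller extent. It had -0.30 and -0.22 in UCP air and -0.47 and -0.57 in particle-free air. All 4 arrays were below 0, with the UCP arrays nearer to 0, and the average was -0.39 ± 0.16 (SD, n = 4, limma adjusted p = 0.284). Cyp39a1, an oxysterol hydroxylase of liver, was above 0 on all 4 arrays and averaged 0.40 ± 0.23 (SD, n = 4, limma adjusted p = 0.333).

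Cyp51, the lanosterol demethylase of cholesterol synthesis, averaged -0.21 ± 0.12 (SD, n = 4) over 2 probes. One probe gave -0.05 and -0.03 in UCP air and 0.18 and 0.19 in particle-free air, the other -0.35 and -0.59 in UCP air and -0.27 and -0.78 in particle-free air. The second probe was lower on all 4 arrays, so the gene's average blends unlike signals.

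The enzymes of steroid hormone synthesis are known from adrenal and gonad, and their values were unsteady here. Cyp11a1, which starts steroid synthesis by cutting the cholesterol side chain, had 0.19 and -0.70 in UCP air and -0.45 and -1.25 in particle-free air. In each air array 2, with the challenged lung in Cy3, was the lower. Cyp17a1 had 0.20 and -0.30 in UCP air and 0.50 and -0.60 in particle-free air, with an average of -0.05. Its sign went with the array number, which is also the dye orientation, and the 2 cannot be told apart.

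Cyp21a1, the adrenal steroid hydroxylase, had -0.19 and 3.74 in UCP air and -1.97 and -0.22 in particle-free air. Its average of 0.34 ± 2.41 (SD, n = 4) rests on array 2 of UCP air, without which it was -0.64. UCP minus particle-free air was 2.87 ± 1.47 (SE), the greatest of the 23 genes in size, and did not pass (limma adjusted p = 0.979). Over the 7 measured genes of this group, of 11 listed, 3 averaged above and 4 below 0, with a median of -0.05 and 0 past the test.

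Of the fatty acid and eicosanoid group only 2 of 18 listed genes were measured. Cyp4f18, which inactivates leukotrienes in mouse myeloid cells, had 0.84 and 0.49 in UCP air and 1.15 and -0.07 in particle-free air. It was near 0 on 1 array and above 0 on the other 3, with an average of 0.60 ± 0.52 (SD, n = 4, limma adjusted p = 0.349). Cyp4f13 averaged 0.09. The retinoic acid hydroxylase Cyp26b1 had -0.08 and -0.07 in UCP air and -0.21 and 0.70 in particle-free air, with an average of 0.08.

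Set side by side by number, the family names do not sort the values. The 9 measured Cyp2 genes ran from -1.29 for Cyp2f2 to 0.47 for Cyp2d10, with a median of 0.08. The 5 Cyp4 genes ran from -0.99 for Cyp4b1 to 0.60 for Cyp4f18, with a median of 0.09. The single Cyp3 gene, Cyp3a11, was the highest of all members. Neighbours in the genome could also differ: Cyp4a14 and Cyp4b1 are separated by 5 genes on chromosome 4 and averaged 0.24 and -0.99, and Cyp2a12 and Cyp2f2 are separated by 3 genes on chromosome 7 and averaged 0.08 and -1.29.

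The next comparison asked which P450 genes answered challenge in each air by itself. In UCP air 2 of 9153 genes, 0.0219%, passed limma's test, and 0 of 23 P450 genes did. On both UCP arrays 1 P450 gene (Cyp3a11) was at least 1.5-fold higher, beside 2.93% of all genes, and 2 (Cyp2f2 and Cyp4b1) at least 1.5-fold lower, beside 3.82%. At an unadjusted p under 0.05 there were 3, the same genes, or 13%, beside 9.37% of all genes.

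In particle-free air 1 gene, 0.0109%, passed limma's test, and 0 of 23 P450 genes did. On both arrays 4 P450 genes (Cyp3a11, Cyp7b1, Cyp2d26 and Cyp2d10) were at least 1.5-fold higher, or 17.4%, beside 3.73% of all genes. The 2 genes at least 1.5-fold lower were again Cyp2f2 and Cyp4b1, beside 3.58% of all genes. Of the 4 higher genes, 3 are liver-type members. At an unadjusted p under 0.05 there were 7 P450 genes, or 30.4%, beside 11.3% of all genes.

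UCP air was then set against particle-free air by the difference of the 2 challenge effects. Limma passed 0 of 9153 genes, 0%, and 2 P450 genes (Cyp3a11 and Cyp2d26) had an unadjusted p under 0.05, or 8.7%, beside 3.94% of all genes. Both UCP arrays lay below both particle-free arrays for 5 P450 genes (Cyp3a11, Cyp7b1, Cyp2d26, Cyp2d10 and Cyp4f14), or 21.7%, beside 15.4% of all genes. They lay above for 3 (Cyp21a1, Cyp4b1 and Cyp27a1), or 13%, beside 16.9%. These shares are near those of all genes.

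For Cyp2f2 the airs gave nearly equal values, -1.34 ± 0.42 over the UCP arrays and -1.24 ± 0.52 over the particle-free arrays (SD, n = 2 each), with a difference of -0.09 ± 0.41 (SE). That standard error leaves room for a difference of the size seen for Cyp4b1. On the same arrays the ratios of heart muscle markers were low in UCP air, and those of fat markers in both airs. Less of such RNA in challenged lung and more of it in the control pool of that air cannot be told apart. Heart muscle markers (12 of 15 measured) had a median of -2.13 in UCP air and 0.05 in particle-free air, and fat markers (11 of 15 measured) had -1.27 in UCP air and -0.88 in particle-free air. Their part in the P450 values was not tested.

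The enzymes that work beside P450s were compared from lists of partners, conjugating enzymes and regulators. Of 21 partner enzymes 11 were measured, 6 above and 5 below 0, with a median averaged log2 ratio of 0.00 and 0 past the test. Ephx1, the microsomal hydrolase that opens epoxides made by P450s, had -0.69 and -0.92 in UCP air and -0.77 and -1.12 in particle-free air. It was at least 1.5-fold lower on every array and averaged -0.88 (limma adjusted p = 0.133). The soluble hydrolase Ephx2 had -0.70 and -1.26 in UCP air and -0.20 and -0.42 in particle-free air. Fdx1, the ferredoxin that carries electrons to mitochondrial P450s, had 0.71 and 0.63 in UCP air and 1.21 and 0.75 in particle-free air. It was at least 1.5-fold higher on every array and averaged 0.82 (limma adjusted p = 0.146). The electron carrier Cyb5b averaged 0.37.

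Of 45 conjugating enzymes 17 were measured, 7 above and 10 below 0, with a median of -0.27 and 0 past the test. The glutathione transferase Gstm1 had -1.22 and -0.86 in UCP air and -0.73 and -1.14 in particle-free air. It was at least 1.5-fold lower on every array, the only measured gene of its list to be so. Gstz1 averaged -0.86, the sulfotransferase Sult1a1 -0.61 and Gsta4 -0.57, each below 0 on all 4 arrays.

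Of 22 regulators 13 were measured, 5 above and 8 below 0, with a median of -0.07 and 0 past the test. Nr1i2, the xenobiotic receptor that drives Cyp3a11 in liver, had 0.66 and 0.84 in UCP air and -2.58 in particle-free array 1. On particle-free array 2 it sat on the ceiling of the ratio scale at -16.05, which is a bound and not a measured ratio. Nr1i3, a related receptor, averaged -0.44, and Arnt, the partner of the aryl hydrocarbon receptor, -0.41. The sterol receptor Nr1h3 averaged 1.0, reaching 3.51 on particle-free array 2 and at most 0.54 on the others.

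**Figure D4:**
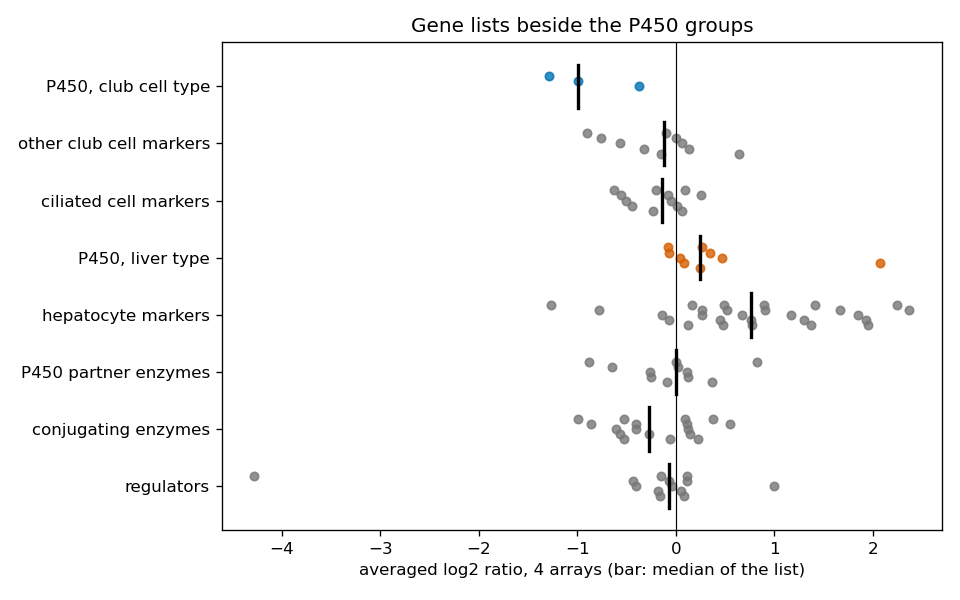
Averaged log2 ratio over 4 arrays (horizontal axis) for each measured gene of 8 lists, with the list's median as a black bar. The club cell P450s have a median of -0.99 beside -0.12 for other club cell markers, and the liver-type P450s 0.24 beside 0.76 for hepatocyte markers; the regulator at the far left is Nr1i2, whose average holds a value at the ceiling of the scale.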

How the data were processed

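The deposited table holds log2 ratios of the 2 channels of each array. Per the labels' protocols, RNA from individual organs was reverse transcribed (20 µg) and labelled with Cy3 or Cy5 against a pool of 6 control animals. Scanner, image software and normalization are, like scale and direction, not given in the sources used here. On each array the most frequent of the values far from 0 formed a plateau (20 to 58 probes), which is log2 of a ceiling of 100000 shifted by an array-wide constant. It was positive on Cy5 arrays and negative on Cy3 arrays, so all 4 already run one way. With that constant removed, low ratios were whole thousandths within 0.0008 on the log2 scale, which settles the scale. Array medians ran from -0.07 to 0.02, and values were used as deposited.

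Of 20205 probes 13852 had 1 symbol, 0 several and 6353 none, and all 23 P450 symbols were found by Entrez identifier in the RefSeq table. The 12532 named probes with 4 values were averaged to 9153 genes. Limma 3.58.1 (R 4.3.3) fitted 1 coefficient per air on all 4 arrays, with 2 residual and 2.37 prior degrees of freedom, and tested each air, their mean and their difference two-sided, adjusted by Benjamini-Hochberg over all genes at 0.05. The fit was tested on simulated data. Alternatives covered probe level, probe medians, centring, scaling, a replicate block, missing values, plateau probes, air means and each array left out.

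The members, role lists and marker lists were chosen with earlier results of these data known. Values on every array are given for Cyp2f2, Cyp4b1, Cyp3a11, members at least 1.5-fold changed one way on all arrays or past the test, and the 6 with the greatest difference between airs; every other member may be named, and of each other list up to 4 genes with the greatest averaged ratio in size. Array values of further members, of Bpifa1 and Scgb3a1, and the motifs were chosen after the values were seen. Brightness and background were not used here, so dim probes were not filtered.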

Additional observations from a re-analysis of the deposited data

How the results depend on the processing

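In the main setting 9 genes passed limma's test for the averaged effect, 2 in UCP air, 1 in particle-free air and 0 for the difference between airs, with no P450 gene among them. For the averaged effect the count was 1 by probe, 5 with arrays centred, 0 with arrays centred and scaled, 0 with the 2 arrays of an air averaged and 42 without probes on the plateau, where Cyp3a11 was the 1 P450 gene to pass. In UCP air it was 0 by probe, 0 after scaling and 16 without plateau probes. In particle-free air it was 0 by probe, 0 after scaling and 4 with probes that had at least 3 values. With replicate number, which is also the dye orientation, as a replicate block, 0 genes passed for the averaged effect, 0 in UCP air and 0 in particle-free air. Same-numbered arrays deviated with a correlation of 0.06 across genes. Values at the ceiling of the ratio scale were kept in it, so it does not settle whether the arrays were paired. The number is taken only as a number and a dye. Leaving out 1 array at a time gave 3 to 19 genes for the averaged effect, 0 to 26 in UCP air, 0 to 4 in particle-free air and 3 to 20 for the difference, 0 of them P450 genes. The highest counts, 19, 26 and 20, came without array 1 of UCP air. The cause of these shifts was not tested.

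Cyp2f2, Cyp4b1 and Cyp3a11 had averaged log2 ratios of -1.48 to -1.11, -1.06 to -0.92 and 1.87 to 2.27 over all alternatives run. Leaving out an array could not turn their direction, since all 4 arrays lay on one side of 0. Each had 1 probe, so probe medians, the replicate block and air means gave the main log2 ratio. With no array left out, limma's adjusted p in the fits by gene ran from 0.107 to 0.306, 0.0894 to 0.341 and 0.0495 to 0.341. The fit by probe is not in these ranges. The median of the club cell group moved to -0.74 with probes that had at least 3 values, which adds Cyp2b10. The liver-type median ran from 0.04 to 0.28 when 1 array was left out, the lowest without array 1 of particle-free air. For genes with 1 probe, several alternatives, such as probe medians, the replicate block and air means, returned the main log2 ratio by design. No P450 gene passed in the main setting, so the side of the threshold could move one way only. Of 493 values of single P450 genes under an alternative, 476 kept direction and side of the threshold, which is therefore no measure of firmness. The 16 that turned sign came from leaving out 1 array. These were averaged effects for Cyp17a1 (-0.33 to 0.23), Cyp21a1 (-0.64 to 1.32), Cyp26b1 (-0.14 to 0.31), Cyp2c70 (-0.05 to 0.75), Cyp2d12 (-0.22 to 0.05), Cyp2d9 (-0.24 to 0.10), Cyp4f13 (-0.02 to 0.20) and Cyp4f14 (-0.08 to 0.16). In UCP air they were Cyp11a1 (-0.70 to 0.19), Cyp21a1 (-0.19 to 3.74) and Cyp2d26 (-0.60 to 0.07), and for the difference between airs Cyp2f2 (-0.46 to 0.28). With 2 arrays an air and no brightness values, small ratios of dim probes cannot be told from noise.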
